A study of Mus musculus with 12 samples.

Results

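The genes described here encode the nuclear subunits and assembly factors of mitochondrial respiratory chain complexes I to IV, measured in 4 dendritic cell (DC) populations of the inflamed mouse lung. Members were taken by symbol from the platform annotation, from probe sets with exactly 1 gene symbol: every Nduf gene, Sdh followed by a to d, every Uqcr gene, and the Cox4i, Cox5, Cox6, Cox7 and Cox8 genes. The rule gave 77 of 18193 genes with such a probe set, and used no measured value to choose them. Where a gene had several probe sets, the one with the highest mean over 12 arrays stood for it. Of the 77 members, 73 passed the filter on dim probe sets, which asked for a signal above the median of the array on at least 3 arrays, and 69 were above it on all 12. Those tested were 28 accessory subunits, 6 core subunits and 8 assembly factors of complex I, 4 subunits and 4 assembly factors of complex II, 8 subunits of complex III and 15 of complex IV, among 10934 genes in all. Sdhaf1 to Sdhaf4 entered because their symbols begin with Sdha, and Ndufa4, once counted with complex I, was placed with complex IV, where its protein is now known to sit.

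The respiratory chain passes electrons from nutrients to oxygen in the inner mitochondrial membrane and pumps protons for the making of ATP. Complex I takes electrons from NADH and complex II takes them from succinate, complex III passes them on to cytochrome c, and complex IV, cytochrome c oxidase, hands them to oxygen. Activation of DC and macrophages by microbial products is known to shift them from respiration towards glycolysis, and in inflammatory macrophages succinate oxidation at complex II is a known control point.

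All mice were C57BL/6J males of 8 to 12 weeks that had received 100 ng of lipopolysaccharide, a bacterial cell wall component, and 100 ug of ovalbumin, a foreign protein, into the airways in 50 ul of PBS. No untreated population was among the samples. Lungs were taken 16 h later, and cells of over 93% purity were sorted, with 20 mice pooled for each replicate. The populations, with 3 arrays each, were 2 conventional ones, marked by CD103 (CD103+ cDC) or by CD11bhi with CD14lo (CD14lo cDC), and 2 derived from monocytes, marked by CD11bhi with CD14hi (CD14hi moDC) or by CD11bhi with Ly6Chi and called inflammatory (Ly6Chi moDC). RNA (50 ng) was amplified and biotin labelled before hybridisation, and the values below are MAS5 signals (arbitrary units) for replicates 1, 2 and 3 or as mean ± SD (n = 3).

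Transcripts of the markers CD103 and CD14 went with the labels of CD103+ cDC, CD14lo cDC and CD14hi moDC. Values for the genes of Ly6C, which marks Ly6Chi moDC, are not given here. Itgae, which encodes CD103, had a signal of 15178 ± 2597 in CD103+ cDC against 855 ± 345 in CD14lo cDC, and Cd14 had 11669 ± 2480 in CD14hi moDC and 10836 ± 1701 in Ly6Chi moDC against 1537 ± 245 in CD14lo cDC (SD, n = 3). The median signal of an array lay between 72.4 and 109. CD103+ cDC replicates 1 and 3 stood apart in how far the 3' control probe set of Gapdh exceeded the 5' one, a ratio of 3.26 and 3.27, while the other 10 arrays lay between 1.48 and 2.29. Counts of genes called in comparisons with CD103+ cDC are therefore given below with both arrays left out as well, which leaves CD103+ cDC with 1 array that is assumed to vary like those of the other populations. The matching ratio for actin set these 2 arrays apart much less. It was 1.12 on CD103+ cDC replicate 1 and 1.03 on replicate 3, and between 0.97 and 1.05 on the other 10 arrays.

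Respiratory chain transcripts were lowest in CD103+ cDC and highest in Ly6Chi moDC for most members, with CD14lo cDC and CD14hi moDC between them. On the log2 scale (signal plus a pseudocount of 50.0), and relative to the mean of each gene over 12 arrays, the 73 members averaged -0.13, -0.15 and -0.15 on the CD103+ cDC arrays. The average was 0.07, 0.02 and -0.05 on those of CD14lo cDC, -0.07, 0.05 and -0.04 on those of CD14hi moDC, and 0.08, 0.28 and 0.08 on those of Ly6Chi moDC. The 3 CD103+ cDC arrays lay below all others and the 3 Ly6Chi moDC arrays above all others, with Ly6Chi moDC replicate 2 well above its fellow replicates. Over all genes tested the population means ran only from -0.03 to 0.05. Ly6Chi moDC had the highest mean for 43 of 73 members (58.9%, against 29.1% of all genes), and CD103+ cDC the lowest for 42 (57.5%, against 36.7% of all genes). In bulk arrays such as these, fewer cells expressing these nuclear genes and less of their RNA per cell cannot be told apart.

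**Figure D1:**
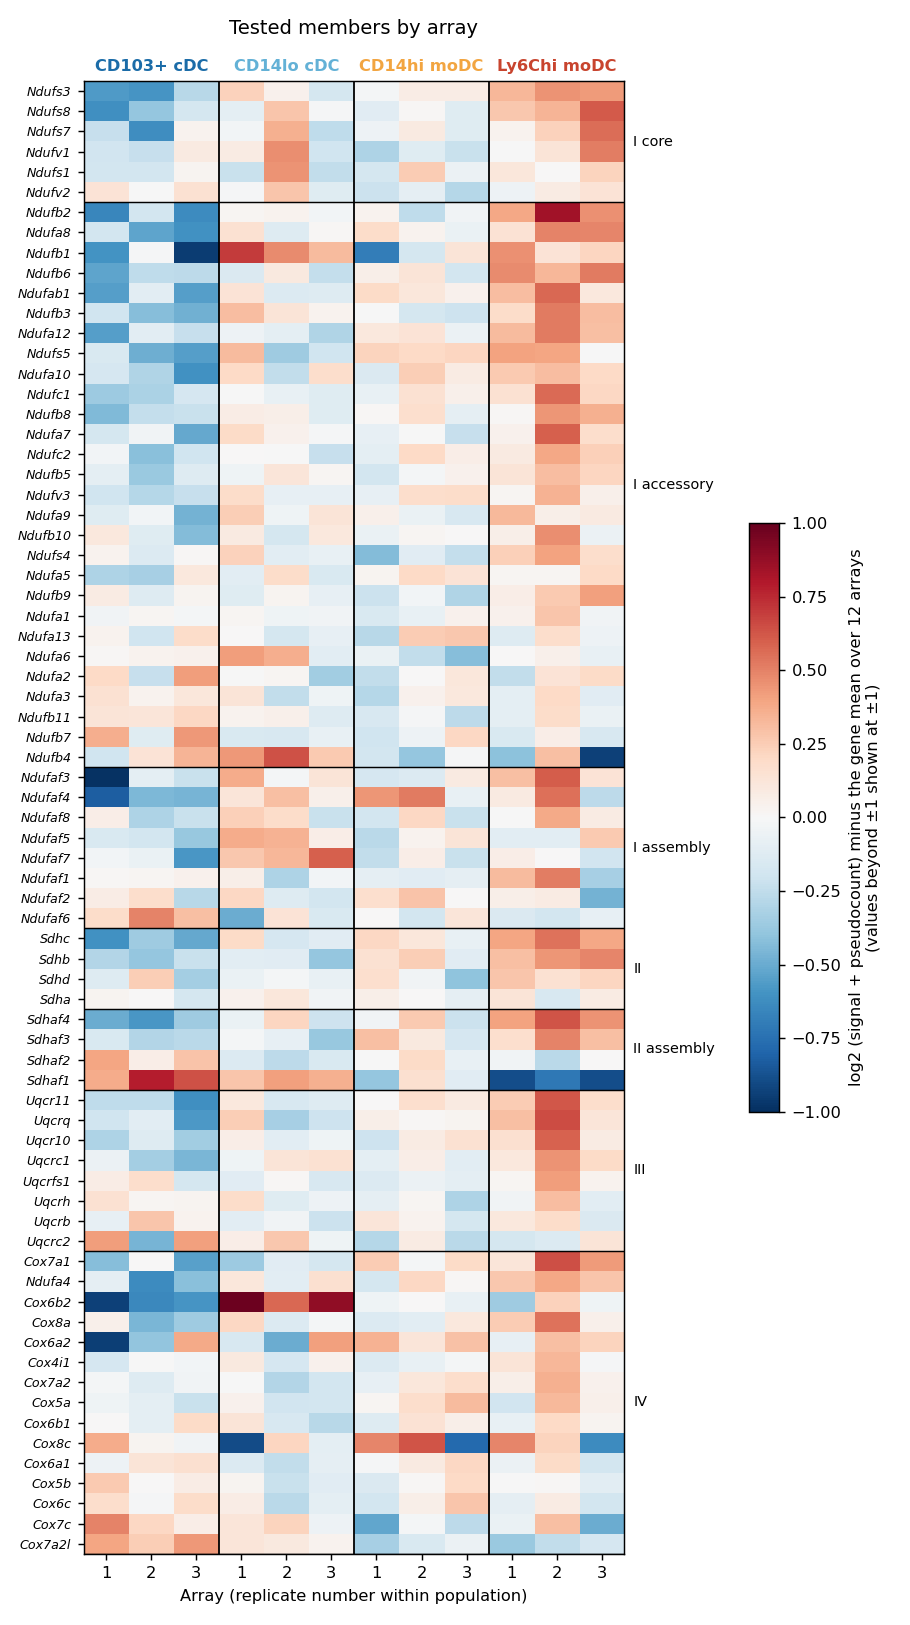
Heat map of the 73 tested members (rows, by complex, ordered within each by the difference between CD103+ cDC and Ly6Chi moDC) on the 12 arrays (columns), as log2 signal plus pseudocount minus the mean of each gene over 12 arrays, red above and blue below that mean. Many complex I to III rows are blue in the 3 CD103+ cDC columns and red in the 3 Ly6Chi moDC columns, while Sdhaf1 and Cox7a2l run the other way and Cox6b2 is highest in CD14lo cDC.

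The widest contrast lay between CD103+ cDC and Ly6Chi moDC. A gene is said to be called, higher or lower, where limma's p, adjusted by Benjamini-Hochberg across the 10934 genes, was under 0.05, and differences are log2 values ± SE. Most counts below for other settings, or with arrays left out, stand without the share of all genes called there. That share can change as well, so a changed count need not be particular to the members. Between these populations 33 members were lower and 2 higher in CD103+ cDC, while 38 were not called. Together that is 47.9% of the members, and 47.5% of all genes were called, so the share called did not set them apart. Their direction was uneven: 45.2% of members were called lower, against 24.3% of all genes, and 2.74% higher, against 23.2%. All 3 CD103+ cDC arrays lay below all 3 Ly6Chi moDC arrays for 35 members, and all above for 4, whereas over all genes 27.4% lay below and 25.9% above. The median difference was -0.30 over the members and -0.02 over all genes.

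**Figure D2:**
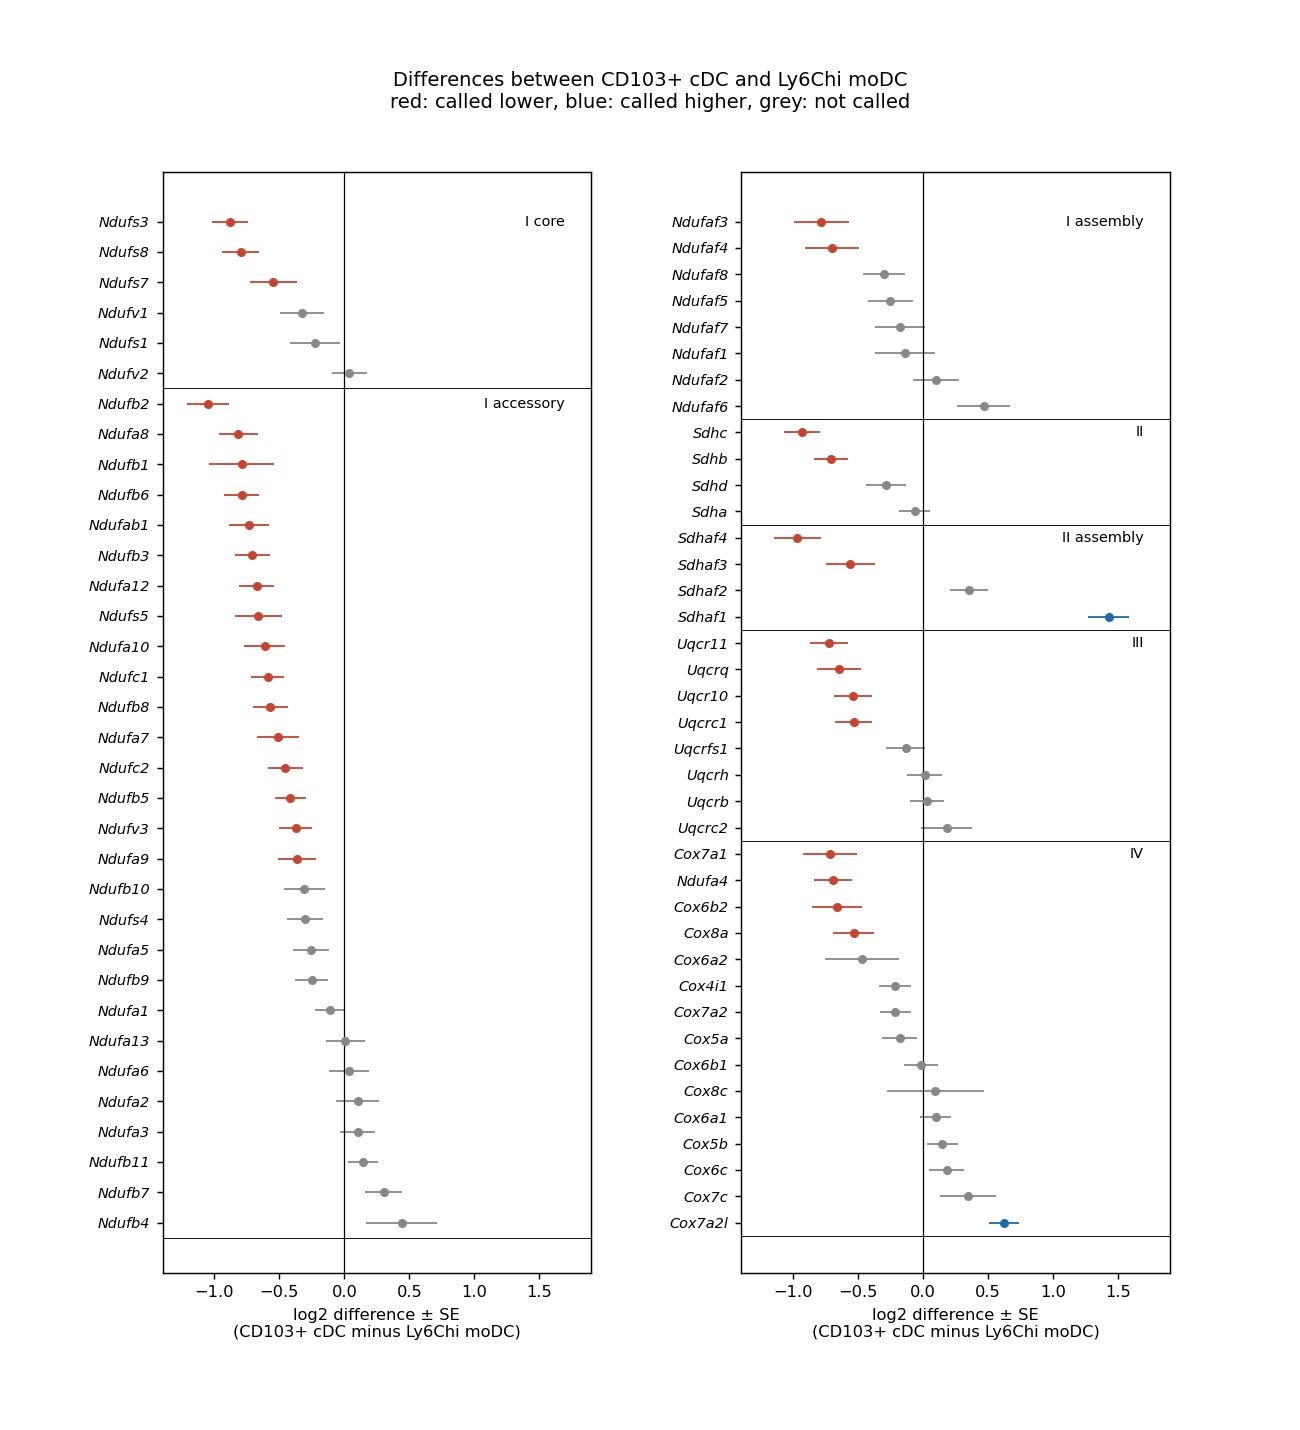
Log2 difference between CD103+ cDC and Ly6Chi moDC ± SE (limma, 3 arrays each) for the 73 tested members, grouped by complex, with negative values lower in CD103+ cDC. Red points are the 33 members called lower, blue points the 2 called higher (Sdhaf1 and Cox7a2l) and grey points the 38 not called.

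By the brightest probe set of each gene, most of these differences were small. Of the 33 lower members only Ndufb2 then passed 2-fold, and the others were between 1.29-fold and 1.96-fold lower. Dimmer probe sets of Ndufc1, Sdhc, Ndufs8 and Ndufa7 were also called lower, by 2.38-fold, 2.32-fold, 2.12-fold and 2.10-fold (limma across all kept probe sets). Without Ly6Chi moDC replicate 2, 26 of the 33 were still called lower, and without CD103+ cDC replicates 1 and 3, 20 of them. The 2 higher members became 5 when CD103+ cDC replicate 2 was left out. With each array centred on its own median in place of the trimmed mean, the median of all genes moved to -0.14 in this comparison and that of the members to -0.42, and 37 members were called lower and 2 higher.

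Complex I, the largest of the complexes, supplied 34 of the 73 tested members as subunits. Between CD103+ cDC and Ly6Chi moDC, 19 of the 35 called members were among these, all lower in CD103+ cDC. The lower share was 50% of core and 57.1% of accessory subunits, against 24.3% of all genes. None was higher, against 23.2% of all genes. The core subunits of complex I hold the electron path from NADH to ubiquinone. Ndufs3, a core subunit beside the ubiquinone site, had signals of 1545, 1519 and 1903 on the CD103+ cDC arrays, 2718, 2391 and 2047 on those of CD14lo cDC, 2284, 2437 and 2434 on those of CD14hi moDC and 2922, 3182 and 3133 on those of Ly6Chi moDC. Every CD103+ cDC array was below every other array, and every Ly6Chi moDC array above every other. The difference between these populations was -0.88 ± 0.14, or 1.84-fold lower in CD103+ cDC (limma, adjusted p = 3.54e-05).

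Ndufs8, which binds iron-sulfur clusters next to the ubiquinone site, was also lower in CD103+ cDC than in Ly6Chi moDC, by 1.74-fold (log2 difference -0.80 ± 0.15, limma, adjusted p = 0.000164). Its signals were 2481, 2897 and 3373 on the CD103+ cDC arrays, 3562, 4636 and 3786 on those of CD14lo cDC, 3527, 3848 and 3494 on those of CD14hi moDC and 4612, 4842 and 5852 on those of Ly6Chi moDC. The CD103+ cDC and Ly6Chi moDC arrays did not overlap. Ndufs7, which holds the last cluster before ubiquinone, was 1.46-fold lower (limma, adjusted p = 0.0177), with overlapping arrays, and its call was lost without CD103+ cDC replicate 2 (log2 difference -0.37) or without Ly6Chi moDC replicate 3 (-0.40). The other core subunits tested were not called: Ndufv1, which binds the flavin that receives electrons from NADH, had 2938 ± 370.2 in CD103+ cDC and 3715 ± 716 in Ly6Chi moDC, Ndufs1 678 ± 62.6 and 800.1 ± 65.4, and Ndufv2 3456 ± 201 and 3364 ± 225 (SD, n = 3). Thus 3 of 6 core subunits were called lower in CD103+ cDC, and none higher, and 3 were called lower also without CD103+ cDC replicates 1 and 3.

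Among the 28 accessory subunits of complex I, which surround the core and are needed for its assembly and stability, 16 were lower (57.1%, against 24.3% of all genes) and none higher in CD103+ cDC than in Ly6Chi moDC, with a median difference of -0.39. Without CD103+ cDC replicates 1 and 3 the lower members were 10. By the brightest probe sets Ndufb2, a subunit of the membrane arm, showed the largest difference of any tested member that was lower in CD103+ cDC. Its signals were 1015, 1423 and 1032 on the CD103+ cDC arrays, 1648, 1671 and 1597 on those of CD14lo cDC, 1664, 1357 and 1581 on those of CD14hi moDC and 2141, 2951 and 2254 on those of Ly6Chi moDC. Its Ly6Chi moDC arrays all lay above those of the other populations, and its CD103+ cDC arrays overlapped only with those of CD14hi moDC. It was 2.07-fold lower in CD103+ cDC than in Ly6Chi moDC (-1.05 ± 0.16, limma, adjusted p = 2.74e-05).

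Ndufa8, a membrane-arm subunit on the intermembrane-space side, gave 2105, 1650.0 and 1560.1 on the CD103+ cDC arrays, 2677, 2189.8 and 2422 on those of CD14lo cDC, 2733, 2466 and 2294 on those of CD14hi moDC and 2666, 3413 and 3387 on those of Ly6Chi moDC. Its CD103+ cDC arrays were below all others, and the difference from Ly6Chi moDC was -0.82 ± 0.15 (1.76-fold, limma, adjusted p = 0.000184). Ndufb6, also of the membrane arm, gave 2572, 3121 and 3102 on the CD103+ cDC arrays, 3374, 3997 and 3149 on those of CD14lo cDC, 3898, 4090.5 and 3282 on those of CD14hi moDC and 5200.0, 4705 and 5385 on those of Ly6Chi moDC, with all Ly6Chi moDC arrays above all others, and was 1.73-fold lower in CD103+ cDC (-0.79 ± 0.14, limma, adjusted p = 0.0001). Ndufab1, the mitochondrial acyl carrier protein that doubles as a complex I subunit, was 1.66-fold lower (-0.73 ± 0.15, limma, adjusted p = 0.000692). Its call was lost without CD103+ cDC replicates 1 and 3 together.

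Other accessory subunits were not called. Ndufa1 had 6443 ± 131 in CD103+ cDC and 6418 ± 160.3 in CD14lo cDC, and 6248 ± 430.0 and 6985 ± 814 in the CD14hi and Ly6Chi moDC, and Ndufa13 had 12649 ± 1672 in CD103+ cDC and 11819 ± 732 in CD14lo cDC, and 13448 ± 2709 and 12551 ± 1419 in the CD14hi and Ly6Chi moDC (SD, n = 3). Neither was called in any of the 7 comparisons. By its brightest probe set with 1 symbol, Ndufb4 passed the filter on only 8 arrays. Brighter probe sets, with mean signals of 5261 and 3149, also match Ndufb4b and Ndufb4c and were left out by the symbol rule. By the dim probe set, Ndufb4 was the 1 accessory subunit of complex I called lower in Ly6Chi moDC than in CD14lo cDC, by 1.73-fold (limma, adjusted p = 0.0389). Its signals in Ly6Chi moDC were 74.4, 153 and 36.3, and the call was lost when any of the CD14lo cDC arrays, or Ly6Chi moDC replicate 1 or 3, was left out. Ndufa10 and Ndufb8 were lower in CD103+ cDC than in Ly6Chi moDC by 1.53-fold and 1.49-fold with the brightest probe set, whose mean signals were 2219.8 and 5210.1. Their second-brightest probe sets had mean signals of 80.4 and 87.1, within the range of the array medians, and gave 0.28 and 0.30 on the log2 scale, which was not called. At such a signal the direction says little. Ndufa5 and Ndufb9 were not called between these populations by their brightest probe sets, but were by the second, at -0.68 and -0.57 (limma across all kept probe sets, adjusted p = 0.00144 and 0.00332).

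The 8 assembly factors of complex I, which help build it and are absent from the finished enzyme, were mixed, with 2 lower and none higher in CD103+ cDC than in Ly6Chi moDC, and none called without CD103+ cDC replicates 1 and 3. The lower share, 25% with all arrays, was near the 24.3% of all genes. Ndufaf3 and Ndufaf4, which act together at an early step, were 1.72-fold and 1.63-fold lower in CD103+ cDC than in Ly6Chi moDC (limma, adjusted p = 0.00514 and 0.00875). The call of Ndufaf3 was lost without CD103+ cDC replicates 1 and 3 together. Ndufaf4 signals were 472, 627 and 621 on the CD103+ cDC arrays, 953, 1087 and 909.9 on those of CD14lo cDC, 1206, 1272 and 829 on those of CD14hi moDC and 931, 1302 and 722 on those of Ly6Chi moDC. It was lower in CD103+ cDC than in all 3 other populations, its CD103+ cDC arrays being below every other array. The call against Ly6Chi moDC was lost without Ly6Chi moDC replicate 2, that against CD14lo cDC without CD103+ cDC replicate 1, and all 3 without CD103+ cDC replicates 1 and 3 together or with its second-brightest probe set. Ndufaf5 and Ndufaf7 were lower in CD103+ cDC than in CD14lo cDC only among the pairs, by 1.41-fold and 1.54-fold (limma, adjusted p = 0.0389 and 0.0201). The call of Ndufaf5 was lost when any 1 of the 3 CD103+ cDC arrays was left out or CD14lo cDC replicate 1 or 2 (log2 differences between -0.60 and -0.41 over all alternatives), and that of Ndufaf7 without replicate 3 of either population.

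Complex II, succinate dehydrogenase, links the citric acid cycle to the chain through 4 subunits, of which Sdhb and Sdhc differed between populations and Sdha and, by its brightest probe set, Sdhd were not called in any comparison. Thus 2 of 4 were lower in CD103+ cDC than in Ly6Chi moDC (50%, against 24.3% of all genes) and none higher. The 2 lower subunits were 2 also without CD103+ cDC replicates 1 and 3. Sdhc, a membrane anchor, gave 1584, 1902 and 1694 on the CD103+ cDC arrays, 2794, 2163 and 2249 on those of CD14lo cDC, 2824, 2645 and 2319.7 on those of CD14hi moDC and 3228, 3577 and 3201 on those of Ly6Chi moDC. The CD103+ cDC arrays were below all others and the Ly6Chi moDC arrays above all others. The difference between these populations was -0.93 ± 0.14, or 1.91-fold (limma, adjusted p = 1.99e-05).

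Sdhb, the iron-sulfur subunit, gave 2899, 2717 and 3047 on the CD103+ cDC arrays, 3312, 3294 and 2723 on those of CD14lo cDC, 3974, 4244 and 3299 on those of CD14hi moDC and 4405, 4854 and 5015 on those of Ly6Chi moDC. It was 1.64-fold lower in CD103+ cDC than in Ly6Chi moDC (-0.71 ± 0.13, limma, adjusted p = 0.000219) and 1.53-fold higher in Ly6Chi moDC than in CD14lo cDC (0.61 ± 0.13, limma, adjusted p = 0.00194). Ly6Chi moDC arrays lay above all others, and those of CD103+ cDC and CD14lo cDC overlapped. Sdha, the flavin subunit that oxidises succinate, had 5626 ± 433 in CD103+ cDC and 5966 ± 305 in CD14lo cDC, and 5774 ± 294 and 5891 ± 620.2 in the CD14hi and Ly6Chi moDC, and Sdhd, the other anchor, had 5722 ± 1219 in CD103+ cDC and 5726 ± 124 in CD14lo cDC, and 5649.6 ± 1102 and 6895 ± 318 in the CD14hi and Ly6Chi moDC (SD, n = 3). The second probe set of Sdhd, with a mean signal of 2365, was called lower in CD103+ cDC than in Ly6Chi moDC (-0.52 ± 0.14, 1.44-fold, limma across all kept probe sets, adjusted p = 0.00578) and than in CD14hi moDC (-0.51, adjusted p = 0.00934).

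Of the 4 assembly factors of complex II, 1 was higher and 2 were lower in CD103+ cDC than in Ly6Chi moDC, and 1 each without CD103+ cDC replicates 1 and 3. Over all genes 24.3% were called lower and 23.2% higher in this comparison. Sdhaf1, needed for the iron-sulfur clusters of Sdhb, ran against the 33 members called lower. Estimates were above 0 for 21 of the 73 members, though only 2 were called higher. Sdhaf1 had 1898, 2541 and 2291 on the CD103+ cDC arrays and 1773, 1948 and 1876 on those of CD14lo cDC. It had 1102, 1629 and 1344 on those of CD14hi moDC and 764, 868 and 764 on those of Ly6Chi moDC. Its Ly6Chi moDC arrays were below all others, and its CD103+ cDC arrays overlapped only with those of CD14lo cDC. It was 2.69-fold higher in CD103+ cDC than in Ly6Chi moDC (1.43 ± 0.16, limma, adjusted p = 5.36e-07), the largest difference of any tested member in this comparison. Sdhaf1 was also 1.64-fold lower in Ly6Chi moDC than in CD14hi moDC and 2.26-fold lower than in CD14lo cDC (limma, adjusted p = 0.00323 and 1.48e-05), and the order of its 4 population means was the reverse of that of Sdhb.

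Sdhaf4, which assists the flavin subunit, gave 301, 281 and 337 on the CD103+ cDC arrays, 423, 526 and 378 on those of CD14lo cDC, 434, 543 and 377 on those of CD14hi moDC and 604, 713 and 624 on those of Ly6Chi moDC, all CD103+ cDC arrays below and all Ly6Chi moDC arrays above the others. It was 1.96-fold lower in CD103+ cDC than in Ly6Chi moDC (-0.97 ± 0.18, limma, adjusted p = 0.000211). Sdhaf3, which acts with Sdhaf1 on Sdhb, was 1.47-fold lower (limma, adjusted p = 0.0213), a call lost without CD103+ cDC replicate 2 or 3, both CD103+ cDC replicates 1 and 3, or Ly6Chi moDC replicate 2 (log2 difference between -0.68 and -0.38 over all alternatives). Sdhaf2, which attaches the flavin, had 1524 ± 175 in CD103+ cDC and 1110.4 ± 50.8 in CD14lo cDC, and 1306 ± 132 and 1183 ± 123 in the CD14hi and Ly6Chi moDC (SD, n = 3). By its brightest probe set it was called only as 1.35-fold higher in CD103+ cDC than in CD14lo cDC (limma, adjusted p = 0.0317), and not when any 1 array of CD14lo cDC, or CD103+ cDC replicate 1 or 3, was left out. The second probe set, with a mean signal of 964, was higher in both CD103+ cDC and Ly6Chi moDC than in CD14lo cDC (0.50 and 0.45, limma across all kept probe sets, adjusted p = 0.0249 and 0.048).

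In complex III, 4 of 8 subunits were lower in CD103+ cDC than in Ly6Chi moDC (50%, against 24.3% of all genes) and none higher. These were 3 small subunits, Uqcr11, Uqcrq and Uqcr10, and the core subunit Uqcrc1, and without CD103+ cDC replicates 1 and 3 the count was 2. Uqcr11 gave 2854, 2860.3 and 2214 on the CD103+ cDC arrays, 3673, 3043 and 3125 on those of CD14lo cDC, 3416, 3834 and 3631 on those of CD14hi moDC and 4093, 5291 and 3858 on those of Ly6Chi moDC, and was 1.65-fold lower (-0.73 ± 0.15, limma, adjusted p = 0.000485), with no overlap between these populations. Uqcrc1 gave 1948, 1589 and 1461 on the CD103+ cDC arrays, 1968, 2225 and 2262 on those of CD14lo cDC, 1889, 2129.7 and 1879 on those of CD14hi moDC and 2189.6, 2782 and 2322 on those of Ly6Chi moDC, and was 1.45-fold lower (-0.53 ± 0.14, limma, adjusted p = 0.00513), again with no overlap.

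Uqcr10 was 1.45-fold and Uqcrq 1.57-fold lower (limma, adjusted p = 0.00448 and 0.00399). Both calls were lost without CD103+ cDC replicates 1 and 3 together. Dimmer probe sets of Uqcr10, with mean signals of 1649 and 951, had a different pattern. Both were lower in CD103+ cDC than in CD14hi moDC (-0.73 and -0.83, limma across all kept probe sets, adjusted p = 0.00502 and 0.0102). In the same fit neither was called between CD103+ cDC and Ly6Chi moDC (-0.42 and -0.52, adjusted p = 0.0778 and 0.0856). For Uqcrq the second-brightest probe set, with a mean signal of 178 against 3916 for the brightest, gave 0.07 on the log2 scale and was not called. The remaining subunits were not called in any comparison by their brightest probe sets, while the second of Uqcrb was lower in CD103+ cDC than in Ly6Chi moDC (-0.37 ± 0.15, limma across all kept probe sets, adjusted p = 0.048). The Rieske iron-sulfur protein Uqcrfs1 had 1546 ± 194 in CD103+ cDC and 1708 ± 287 in Ly6Chi moDC, the hinge protein Uqcrh 8432 ± 439 and 8415 ± 1369.8, Uqcrb 9430.4 ± 1219 and 9234 ± 1084, and the core subunit Uqcrc2 5201 ± 1628 and 4431 ± 523 (SD, n = 3). In Uqcrc2 the wide spread came from CD103+ cDC replicate 2, at 3321 against 6159 and 6122.

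Of 15 complex IV members tested, 4 were lower in CD103+ cDC than in Ly6Chi moDC, 1 was higher and 10 were not called, with a median difference of -0.18. The lower share, 26.7%, was near the 24.3% of all genes. Without CD103+ cDC replicates 1 and 3, 2 were lower and 1 higher. Whether complexes differed from each other was not tested. Cox4i1, Cox5a and Cox5b were not called between these populations: Cox4i1 had 7623 ± 471 in CD103+ cDC and 7963 ± 761 in CD14lo cDC, and 7563 ± 290.4 and 8902 ± 1075 in the CD14hi and Ly6Chi moDC, Cox5a 9249 ± 569 in CD103+ cDC and 9327 ± 875 in CD14lo cDC, and 11352 ± 1190.3 and 10597 ± 1923 in the CD14hi and Ly6Chi moDC, and Cox5b 11859 ± 1123 in CD103+ cDC and 10173 ± 879 in CD14lo cDC, and 11156 ± 1347 and 10669 ± 478 in the CD14hi and Ly6Chi moDC (SD, n = 3). Of 5 probe sets of Cox5b the fourth in brightness was called lower in CD103+ cDC and the others were not (-0.37 ± 0.13, limma across all kept probe sets, adjusted p = 0.0294). By their brightest probe sets, Cox6a1, Cox6b1, Cox6c and Cox7c were called in none of the 7 comparisons.

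**Figure D3:**
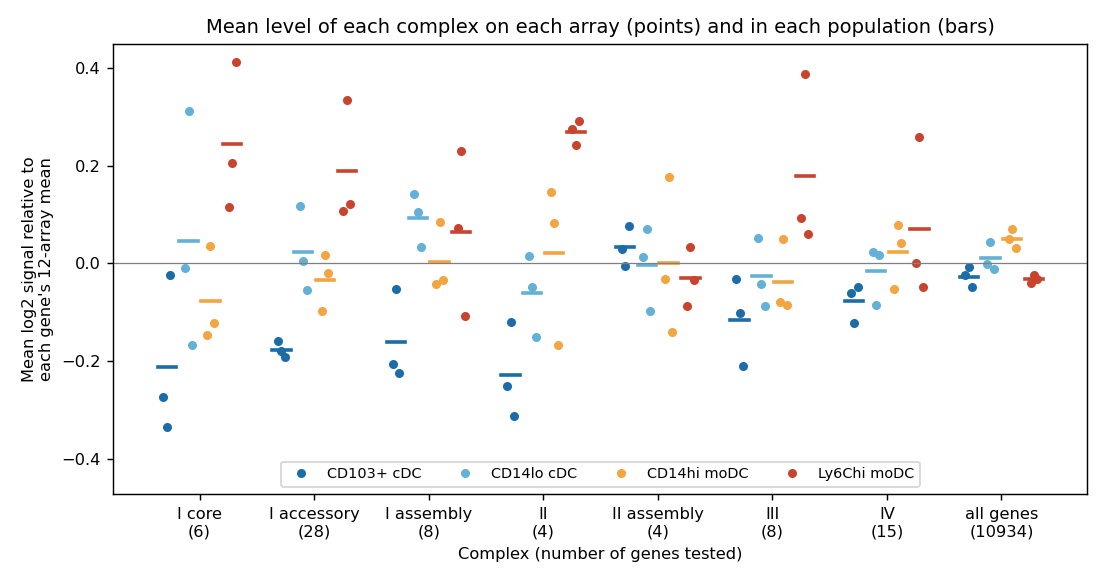
Mean log2 signal of the tested genes of each complex on each array (points) and in each population (bars), relative to the mean of each gene over 12 arrays, with the number of genes in parentheses and all 10934 genes tested at the right. In complex II the means ran from -0.23 in CD103+ cDC to 0.27 in Ly6Chi moDC, and in complex IV from -0.08 to 0.07.

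The 4 complex IV members that were lower in CD103+ cDC than in Ly6Chi moDC were Ndufa4, Cox7a1, Cox6b2 and Cox8a. Ndufa4 gave 3552, 2431 and 2818 on the CD103+ cDC arrays, 4098, 3515 and 4236 on those of CD14lo cDC, 3355, 4373 and 3809 on those of CD14hi moDC and 4570.3, 4977 and 4599 on those of Ly6Chi moDC, and was 1.62-fold lower (-0.69 ± 0.15, limma, adjusted p = 0.000764). Its Ly6Chi moDC arrays were above all others and its CD103+ cDC arrays overlapped with the middle populations. Cox7a1, an isoform known from heart and skeletal muscle, gave 120.5, 179.7 and 108 on the CD103+ cDC arrays, 128, 162 and 153 on those of CD14lo cDC, 223, 176 and 211 on those of CD14hi moDC and 199, 307 and 258 on those of Ly6Chi moDC and was 1.64-fold lower (limma, adjusted p = 0.00892). Cox8a was 1.45-fold lower (limma, adjusted p = 0.00995). Both calls were lost without Ly6Chi moDC replicate 2, where the log2 differences were -0.59 for Cox7a1 and -0.40 for Cox8a, and that of Cox7a1 also without CD103+ cDC replicates 1 and 3 together (-0.39).

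Cox7a2l, which encodes the factor that joins complexes III and IV in supercomplexes and is made in a shortened form in C57BL/6 mice, also ran against the members called lower, with 11364, 10246 and 11659.9 on the CD103+ cDC arrays, 9376, 9221 and 8829.9 on those of CD14lo cDC, 6826, 7752 and 8258 on those of CD14hi moDC and 6632, 7256 and 7648 on those of Ly6Chi moDC. The arrays of both conventional populations lay above those of both monocyte-derived ones. It was 1.54-fold higher in CD103+ cDC than in Ly6Chi moDC (0.62 ± 0.11, limma, adjusted p = 0.000177) and 1.46-fold higher than in CD14hi moDC (limma, adjusted p = 0.000978). The second call was lost without CD103+ cDC replicates 1 and 3 together (log2 differences of 0.40 to 0.76 over all alternatives). Its relative Cox7a2, the isoform of most tissues, had 11787 ± 474 in CD103+ cDC and 11015 ± 1126 in CD14lo cDC, and 12918 ± 1188 and 13735 ± 1749.7 in the CD14hi and Ly6Chi moDC (SD, n = 3). Its brightest probe set was called only as lower in conventional DC (-0.22, limma, adjusted p = 0.0471). The second, with a mean signal of 5319, was also lower in CD103+ cDC than in Ly6Chi moDC (-0.56 ± 0.13, 1.47-fold, limma across all kept probe sets, adjusted p = 0.0015) and higher in Ly6Chi moDC than in CD14lo cDC (0.42, adjusted p = 0.0216).

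Cox6b2, an isoform known from testis, had a pattern of its own, with 177, 228 and 238 on the CD103+ cDC arrays, 805, 594 and 752 on those of CD14lo cDC, 372, 386 and 361 on those of CD14hi moDC and 289, 459 and 369.6 on those of Ly6Chi moDC. The 3 CD14lo cDC arrays were above all others and the 3 CD103+ cDC arrays below all others. CD14lo cDC exceeded CD103+ cDC by 2.90-fold, Ly6Chi moDC by 1.83-fold and CD14hi moDC by 1.80-fold (limma, adjusted p = 6.17e-06, 0.00205 and 0.00396). Its ubiquitous counterpart Cox6b1 had 12336 ± 1275 in CD103+ cDC and 11262 ± 1665 in CD14lo cDC, and 12238 ± 1173 and 12470.1 ± 1214 in the CD14hi and Ly6Chi moDC (SD, n = 3).

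Tissue-restricted relatives were mostly dim. The 4 members that failed the filter were Cox4i2, Cox7b2, Cox8b and Ndufa4l2. Cox4i2 was just outside it, above the array median on 2 arrays, and the other 3 on none. Cox8c was just inside, on 3 arrays, with signals between 6.70 and 113, and was called in no comparison, as was Cox6a2, a muscle isoform, with 175 ± 105 in CD103+ cDC and 206 ± 83.5 in CD14lo cDC, and 263 ± 25.4 and 242 ± 39.3 in the CD14hi and Ly6Chi moDC (SD, n = 3). For members this dim the pseudocount makes up much of the log2 value, and their differences are understated.

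**Figure D4:**
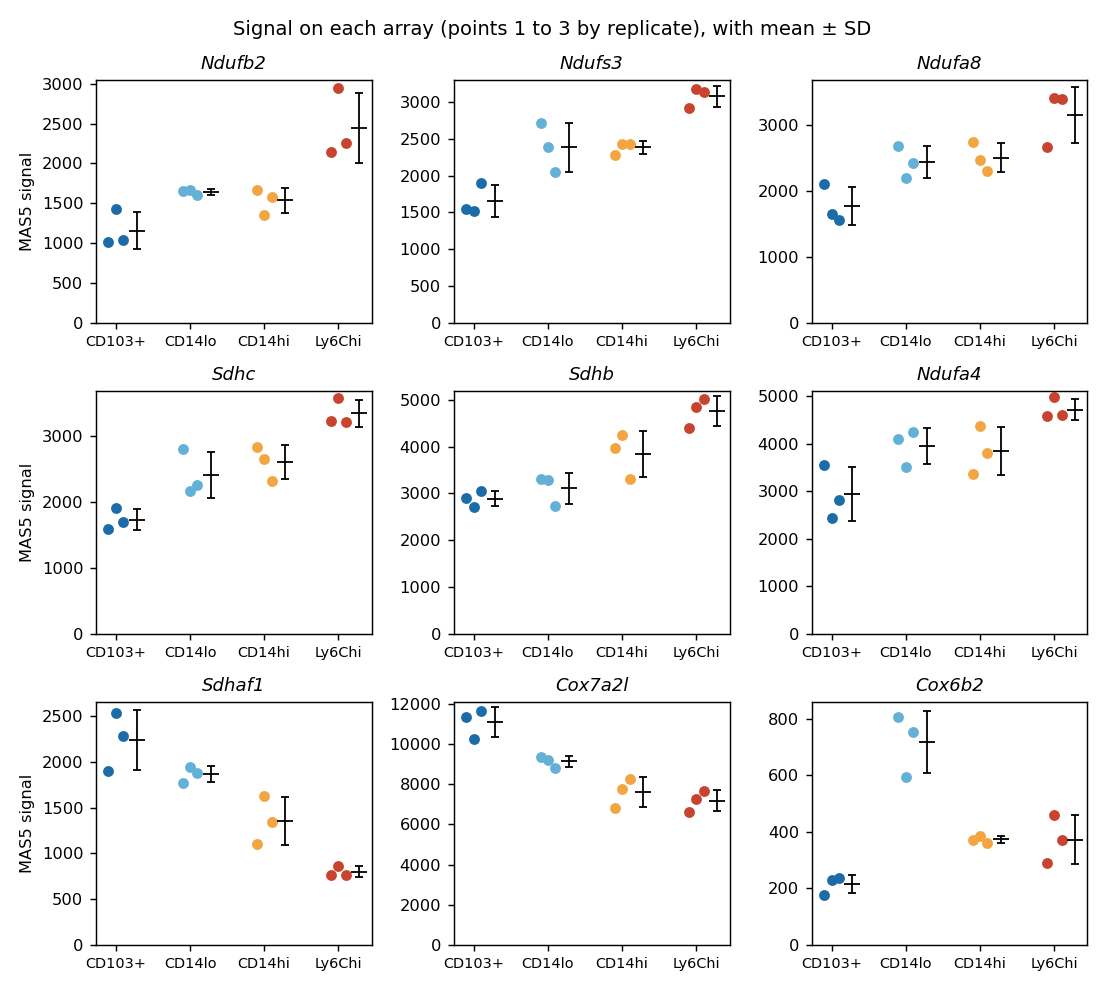
MAS5 signal (arbitrary units, from 0) of 9 members on each array, with the mean ± SD of 3 arrays beside the points of each population. Ndufb2, Ndufs3, Ndufa8, Sdhc, Sdhb and Ndufa4 have their highest mean in Ly6Chi moDC, Sdhaf1 and Cox7a2l in CD103+ cDC, and Cox6b2 in CD14lo cDC at 717.

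Across the lineage divide, comparing the mean of the conventional with that of the monocyte-derived populations, 24 members were lower and 3 higher in conventional DC. The share called was 37.0%, and 41.5% of all genes were called. Lower calls took in 32.9% of members against 20.7% of all genes, where 20.8% were called higher, and the median difference was -0.12. Without CD103+ cDC replicates 1 and 3, 16 were lower, 13 of them among the 24, and 2 higher. The 24 were between 1.17-fold and 1.45-fold lower, and for each of them the arrays of the sides overlapped. Sdhc and Sdhb of complex II were among them, at -0.52 ± 0.10 and -0.50 ± 0.09 (limma, adjusted p = 0.000278 and 0.000256). The 3 higher members were Sdhaf1 (0.94 ± 0.11), Ndufb4 (0.54 ± 0.19) and Cox7a2l (0.45 ± 0.08), with adjusted p in limma of 1.58e-06, 0.0309 and 0.000195. The call of Ndufb4 rests on its dim probe set.

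The middle populations differed least. By the brightest probe sets, 2 members were called between CD14hi moDC and CD14lo cDC, both lower in CD14hi moDC. That is 2.74% of the members, while 16.2% of all genes were called and 6.95% called lower. The 2 were Cox6b2 and Ndufa6, a complex I accessory subunit, which was 1.38-fold lower (limma, adjusted p = 0.0423). Ndufa6 was not called when CD14lo cDC replicate 1 or 2, CD14hi moDC replicate 2 or 3, or any Ly6Chi moDC array was left out. Cox6b2 was called in each, and the count was 1 without CD14lo cDC replicate 1 or 2 or any Ly6Chi moDC array and 4 without CD103+ cDC replicate 3. The median difference of the members was 0.01, and it was -0.02 after quantile normalization and -0.09 after median centring, which moved that of all genes to -0.11. Dimmer Uqcr10 probe sets were called higher in CD14hi moDC (0.70 and 0.84, limma across all kept probe sets, adjusted p = 0.0153 and 0.0197). The brightest probe set of Uqcr10 was not called (0.04).

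CD103+ cDC was set against each middle population. Against CD14lo cDC 13 members were lower and 1, Sdhaf2, higher, or 19.2% in all, where 28.7% of all genes were called. Lower calls alone made up 17.8% of members and 15.3% of all genes, of which 13.4% were called higher. The largest were Cox6b2 and Ndufb1, a dim membrane-arm subunit of complex I, at -1.01 ± 0.25 (limma, adjusted p = 0.0052). The 13 lower calls fell to 8 without CD103+ cDC replicate 3 or CD14lo cDC replicate 3, to 6 without CD14lo cDC replicate 1 and to 4 without CD103+ cDC replicates 1 and 3. The count of higher calls was 0 without CD103+ cDC replicate 1 or 3 or CD14lo cDC replicate 1 or 3, and 2 without CD103+ cDC replicate 2.

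Against CD14hi moDC, 13 members were lower and 2 higher in CD103+ cDC, or 20.5%, where 37.2% of all genes were called. Lower calls were 17.8% of members and 20.3% of all genes. Sdhc was 1.49-fold lower (-0.57 ± 0.14, limma, adjusted p = 0.00306) and Ndufs5, an accessory subunit of complex I, 1.53-fold lower (-0.61 ± 0.18, limma, adjusted p = 0.0109). The 13 fell to 7 without CD14hi moDC replicate 2 and to 4 without CD103+ cDC replicates 1 and 3, among which Sdhc was not. The 2 higher members (16.9% of all genes were called higher) were Sdhaf1 and Cox7a2l, and 4 were called without CD103+ cDC, CD14hi moDC or Ly6Chi moDC replicate 2. After median centring the split was 4 higher and 6 lower, where the median of all genes was 0.08.

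Ly6Chi moDC was also set against each middle population. Against CD14hi moDC 6 members were higher and 1, Sdhaf1, lower, or 9.59%, where 18.2% of all genes were called. The 6 were all complex I subunits: Ndufb2, Ndufs4, Ndufs8, Ndufb3, Ndufb6 and Ndufb9, from 1.34-fold to 1.57-fold. Higher calls were 8.22% of members and 6.81% of all genes, of which 11.4% were called lower. The 6 became 2 without CD14hi moDC replicate 1 or 3 or without Ly6Chi moDC replicate 2 or 3, and 1 with the second-brightest probe sets. After median centring the split was 32 higher and 1 lower, where the median of all genes had moved to 0.21 and that of the members to 0.43.

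Against CD14lo cDC, 9 members were higher and 4 lower in Ly6Chi moDC, or 17.8%, where 25.2% of all genes were called. The higher members came from complex I (Ndufb2, Ndufb6, Ndufa12 and Ndufc1), complex II (Sdhb and Sdhc), its assembly factor Sdhaf4, complex III (Uqcr11) and complex IV (Cox7a1). Higher calls were 12.3% of members and 11.2% of all genes. The 9 became 3 without CD14lo cDC replicate 3 or Ly6Chi moDC replicate 2, and Sdhb, Ndufb6 and Ndufa12 were called in each. The 4 lower members (14% of all genes were called lower), Sdhaf1, Cox6b2, Ndufb4 and Cox7a2l, became 2 when any CD14lo cDC array or Ly6Chi moDC replicate 1 was left out, and Sdhaf1 and Cox6b2 were called in each. After median centring the split was 16 higher and 2 lower, where the median of all genes was 0.11.

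Few members stood apart from all 3 other populations at once. CD103+ cDC was lower than each of the others for 6 (Ndufa8, Ndufs3, Ndufaf4, Sdhc, Ndufa4 and Cox6b2), or 8.22%, against 9.94% of all genes. Ly6Chi moDC was higher than each for Ndufb2 and Ndufb6, 2.74% of members against 3.39% of all genes, and lower than each for Sdhaf1, against 6.52% of all genes. CD14lo cDC was higher than each for Cox6b2, against 1.34%. These shares were near or below those of all genes. Without CD103+ cDC replicates 1 and 3 the 6 fell to 2, Ndufs3 and Ndufa4, or 2.74% against 5.69% of all genes, while Ndufb2, Ndufb6 and Sdhaf1 in Ly6Chi moDC and Cox6b2 in CD14lo cDC were still called apart. In several of them the calls against the middle populations depended on single arrays, as for Ndufs3, whose call against CD14lo cDC was lost without CD14lo cDC replicate 1.

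The promoters of the members that stood apart are shown because nuclear respiratory genes are known to share binding sites for nuclear respiratory factor 1 (NRF1) and for ETS factors, the family of GABP, the second nuclear respiratory factor. RefSeq promoter windows of 300 bases (GRCm38.p6, 250 before and 50 after the annotated start) were matched for 63 of 77 members. Both strands were searched for GCGCA, any base, then GCGC (NRF1), for CCGGAAG (ETS) and AAGATGGC (YY1). Printed 5′ to 3′ on the strand of the gene up to 30 bases after the start, with motif matches in capitals, those of the set-apart members that held one are:
Ndufa8, chr2:36049309-36049588, minus strand: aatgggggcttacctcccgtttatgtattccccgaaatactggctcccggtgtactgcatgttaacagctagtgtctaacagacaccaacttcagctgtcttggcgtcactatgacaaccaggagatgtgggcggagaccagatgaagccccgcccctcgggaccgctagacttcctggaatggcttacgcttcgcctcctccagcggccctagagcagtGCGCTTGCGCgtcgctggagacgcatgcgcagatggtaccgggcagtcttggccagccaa
Ndufs3, chr2:90904692-90904971, minus strand: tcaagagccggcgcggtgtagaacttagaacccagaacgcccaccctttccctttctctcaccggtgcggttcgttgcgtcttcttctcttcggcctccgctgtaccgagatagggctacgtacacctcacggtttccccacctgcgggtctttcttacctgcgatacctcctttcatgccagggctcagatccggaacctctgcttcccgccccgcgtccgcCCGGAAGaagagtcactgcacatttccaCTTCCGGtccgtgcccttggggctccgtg
Ndufaf4, chr4:24897833-24898112, plus strand: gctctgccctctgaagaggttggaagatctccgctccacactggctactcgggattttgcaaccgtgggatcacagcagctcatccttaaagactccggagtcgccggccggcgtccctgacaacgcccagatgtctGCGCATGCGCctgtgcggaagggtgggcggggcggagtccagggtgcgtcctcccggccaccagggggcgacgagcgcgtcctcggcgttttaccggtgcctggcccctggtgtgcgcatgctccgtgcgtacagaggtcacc
Ndufb6, chr4:40279392-40279671, minus strand: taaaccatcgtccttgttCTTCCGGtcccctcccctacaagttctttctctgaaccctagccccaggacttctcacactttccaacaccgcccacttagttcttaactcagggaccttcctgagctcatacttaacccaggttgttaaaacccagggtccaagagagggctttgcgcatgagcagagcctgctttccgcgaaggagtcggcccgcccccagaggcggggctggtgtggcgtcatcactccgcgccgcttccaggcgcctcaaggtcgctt
Sdhaf1, chr7:30322346-30322625, minus strand: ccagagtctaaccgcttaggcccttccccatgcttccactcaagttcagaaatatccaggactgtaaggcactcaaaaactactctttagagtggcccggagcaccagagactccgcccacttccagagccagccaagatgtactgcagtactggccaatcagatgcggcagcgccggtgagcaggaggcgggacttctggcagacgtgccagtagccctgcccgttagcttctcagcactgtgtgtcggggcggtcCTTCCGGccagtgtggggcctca

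The NRF1 match of Ndufa8 began 30 bases before the annotated start and that of Ndufaf4 113 before it. The ETS matches of Ndufs3 began 27 bases before and 1 after the start, that of Ndufb6 232 before, and that of Sdhaf1 7 after. Over the members, 13 of 63 (20.6%) held the NRF1 motif, against 12.0% of 8938 tested genes with a window and 4.60% of all 32851 windows. For ETS the counts were 16 (25.4%), 21.0% and 8.86%, and for YY1 7 (11.1%), 5.61% and 2.75%. Among the 31 matched members lower in CD103+ cDC than in Ly6Chi moDC, 16 held at least 1 of the motifs and 15 none, and among the 28 not called, 15 held one and 13 none. A match is a string in the window and shows no binding.

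Lists of other mitochondrial genes were compared between CD103+ cDC and Ly6Chi moDC, where 24.3% of all genes were called lower and 23.2% higher. Of 76 proteins of the mitochondrial ribosome, which makes the chain's mitochondrially encoded subunits, 43 were lower in CD103+ cDC (56.6%) and 3 higher, with a median of -0.50, and without CD103+ cDC replicates 1 and 3, 22 were lower and 2 higher. Mrpl33 was 2.54-fold lower (-1.35 ± 0.24, limma, adjusted p = 0.000159). Of 21 genes of the protein import machinery 13 were lower (61.9%) and 1 higher (median -0.54), or 9 and 1 without those arrays, with Timm8a1 2.29-fold lower (-1.20 ± 0.17, limma, adjusted p = 8.16e-06). Between CD14hi moDC and CD14lo cDC, none of the 76 and 1 of the 21 were called, where 16.2% of all genes were.

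In the citric acid cycle and the pyruvate dehydrogenase that feeds it, 8 of 15 genes were lower in CD103+ cDC than in Ly6Chi moDC (53.3%) and none higher, and 7 were lower without CD103+ cDC replicates 1 and 3. Pdha1, a pyruvate dehydrogenase subunit, was 2.26-fold lower (limma, adjusted p = 1.74e-05). Of 16 ATP synthase genes 4 were lower (25%), a share near that of all genes, and 1 higher, or 3 and none without those arrays, the largest being Atp5mc1, which encodes the membrane ring subunit, at -1.03 (limma, adjusted p = 8.55e-05). Of 16 assembly factors of complexes III and IV 6 were lower (37.5%) and 1 higher, or 2 and none without those arrays. Among cytochrome c and its partners 3 of 6 were lower and 1 higher, or 1 and none without them. The 3 included Cyc1, cytochrome c1 of complex III that the symbol rule leaves out, at -0.69 (limma, adjusted p = 0.000401), a call lost without CD103+ cDC replicates 1 and 3 together.

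Among 12 regulators of mitochondrial biogenesis 3 were lower in CD103+ cDC than in Ly6Chi moDC (25%), again near the share of all genes, and none higher, and 1 was lower without CD103+ cDC replicates 1 and 3. Ppargc1b, a coactivator of mitochondrial genes, was 3.53-fold lower (-1.82, limma, adjusted p = 1.18e-06). In a list of genes known to hold respiration back, 6 of 7 tested were lower in CD103+ cDC and none higher, or 3 without those arrays. Acod1, whose product makes itaconate, an inhibitor of complex II, had signals of 113 ± 91.1 in CD103+ cDC and 156 ± 68.3 in CD14lo cDC, and 1554 ± 571 and 3728 ± 1272 in the CD14hi and Ly6Chi moDC (SD, n = 3). Hif1a, the hypoxia-inducible factor subunit, had 1869 ± 180.3, 2402 ± 182, 2420.3 ± 242 and 4242 ± 664 in the same order, and Nos2 and Pdk4 failed the filter.

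Of 11 cell cycle genes tested, 9 were higher in CD103+ cDC than in Ly6Chi moDC (81.8%, against 23.2% of all genes) and none lower (median 1.83), the counts being 9 and none also without CD103+ cDC replicates 1 and 3, and 10 were lower in Ly6Chi moDC than in CD14hi moDC. Over all genes 11.4% were called lower in Ly6Chi moDC than in CD14hi moDC. Rrm2, a ribonucleotide reductase subunit, was 3.24 higher on the log2 scale in CD103+ cDC than in Ly6Chi moDC (limma, adjusted p = 2.51e-09).

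Summed markers of several other cell types also differed between CD103+ cDC and Ly6Chi moDC. For lung epithelium, neutrophil and B cell markers the median sums of CD14lo cDC and CD14hi moDC lay between theirs. From CD103+ cDC over CD14lo cDC and CD14hi moDC to Ly6Chi moDC, the epithelium medians were 8797, 3846, 3353 and 2722. Those of neutrophil markers were 800, 892, 1506 and 4126, and those of B cell markers 283, 375, 430 and 500. For some other lists the middle populations did not lie between. Sums of natural killer cell markers were highest in CD14lo cDC (6044 to 6820), and those of fibroblast markers in CD14hi moDC (4637 to 5501). The summed signal of 6 lung epithelium markers lay between 6852 and 11363 on CD103+ cDC arrays and between 1838 and 2753 on those of Ly6Chi moDC, with Krt18 failing the filter and Scgb1a1 the largest part in both. That of 4 measured neutrophil markers lay between 249.6 and 1829 in CD103+ cDC and between 3860.3 and 4159 in Ly6Chi moDC, with Cxcr2 failing the filter. Sums of 5 measured alveolar macrophage markers lay between 1336 and 4917 in CD103+ cDC and between 6205 and 8069 in Ly6Chi moDC, and those of 5 fibroblast markers between 1632 and 2137 and between 2801 and 4448. Among single genes, all 5 epithelium markers tested were called higher in CD103+ cDC than in Ly6Chi moDC, against 23.2% of all genes. All 3 neutrophil and all 3 endothelium markers tested were called lower, against 24.3% of all genes. Single genes of other lists did not all follow the sums. Of the 5 alveolar macrophage markers 1 was called higher and 1 lower in CD103+ cDC (median log2 difference 0.71). Of the 5 fibroblast markers 1 was called lower and none higher (median -0.49). For 5 measured natural killer cell markers, of which 1 passed the filter, the sums were lower in Ly6Chi moDC, at 509 to 567, than in CD103+ cDC, at 2479 to 2934. Those of 4 measured B cell markers (275 to 368 against 432 to 503) and of 4 endothelium markers (200.4 to 311 against 526 to 994) were also lower in CD103+ cDC without overlap. Of the 3 B cell markers tested, however, 1 was called higher and 1 lower in CD103+ cDC (median log2 difference -0.04). The T cell and erythrocyte markers measured all failed the filter, and their sums overlapped. None of these markers was listed at 0. The bioB hybridisation control was 5250.4 ± 1100.4 in CD103+ cDC against 2974 ± 578 in Ly6Chi moDC (SD, n = 3). Their part in the differences of the respiratory chain genes was not tested.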

How the data were processed

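The authors deposited MAS5 intensities (linear signal per probe set, per the submitters' processing notes) for 12 arrays; the 2% trimmed mean was 500.003 on each. Probe sets with 1 symbol in the platform annotation were kept if above the array median on at least 3 arrays, and the brightest on average stood for each gene, leaving 10934 genes. log2(signal + 50.0) was fitted with limma 3.58.1 (R 4.3.3; 4 populations, trended variance, no block), with Benjamini-Hochberg adjustment over all genes in each of 7 comparisons. The 3 arrays per population limit the precision. Replicates are pools of mice, and p-values measure the spread between these samples. The fit was tested on simulated data. Members, gene lists and tests were chosen with earlier results of these data known. The rule for naming took, in each comparison, up to 6 called members with the largest difference each way, members apart from all 3 other populations, complexes II and III, isoform pairs, members that failed the filter and up to 4 genes of each list; other members named were chosen after their values were seen. Alternatives changed the scaling, pseudocount, filter, probe set rule, block and arrays used. Leaving out CD103+ cDC replicates 1 and 3 and using the second-brightest probe set were added after seeing the data. Figures were drawn with matplotlib 3.10.9.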

Additional observations from a re-analysis of the deposited data

How the results depend on the processing

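Of 3000 values of single genes under the alternatives, 2639 kept their direction and their side of the threshold, 354 were no longer called and 7 changed sign, all 7 with the second-brightest probe set: Ndufa10 (0.18 in conventional minus monocyte-derived, 0.19 in CD103+ cDC minus CD14hi moDC and 0.28 in CD103+ cDC minus Ly6Chi moDC), Ndufb8 (0.16 and 0.30 in the first and last of these) and Uqcrq (0.081 and 0.075). These second probe sets had mean signals of 80.4, 87.1 and 178, against 2219.8, 5210.1 and 3916 for the brightest.

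Counts of members called under other settings were as follows, without the share of all genes called under the same setting. That share can change too, and the cause of the changes was not tested. Quantile normalization gave 4 lower in CD14hi moDC minus CD14lo cDC, 2 higher in CD103+ cDC minus CD14lo cDC and 20 lower in CD103+ cDC minus CD14hi moDC. Median centring gave 5 lower in CD14hi moDC minus CD14lo cDC, 0 higher in CD103+ cDC minus CD14lo cDC, 32 higher in Ly6Chi moDC minus CD14hi moDC, 4 higher and 6 lower in CD103+ cDC minus CD14hi moDC, and 16 higher and 2 lower in Ly6Chi moDC minus CD14lo cDC. Testing without the filter gave 1 lower in CD14hi moDC minus CD14lo cDC, 2 higher in CD103+ cDC minus CD14lo cDC, and 5 higher and 2 lower in Ly6Chi moDC minus CD14lo cDC. The mean of probe sets gave 1 higher and 5 lower in CD14hi moDC minus CD14lo cDC and 2 higher in CD103+ cDC minus CD14lo cDC. The second-brightest probe set gave 1 higher in CD14hi moDC minus CD14lo cDC, 2 higher in CD103+ cDC minus CD14lo cDC and 1 higher in Ly6Chi moDC minus CD14hi moDC. Without CD103+ cDC replicates 1 and 3 together, 5 were lower in CD14hi moDC minus CD14lo cDC, 0 higher and 4 lower in CD103+ cDC minus CD14lo cDC, 1 higher and 4 lower in CD103+ cDC minus CD14hi moDC and 20 lower in CD103+ cDC minus Ly6Chi moDC.

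Leaving out 1 array at a time gave 2 to 4 higher and 16 to 25 lower members in conventional minus monocyte-derived, 0 higher and 1 to 4 lower in CD14hi moDC minus CD14lo cDC, 0 to 2 higher and 6 to 13 lower in CD103+ cDC minus CD14lo cDC, 2 to 6 higher and 1 lower in Ly6Chi moDC minus CD14hi moDC, 2 to 4 higher and 7 to 14 lower in CD103+ cDC minus CD14hi moDC, 3 to 11 higher and 2 to 4 lower in Ly6Chi moDC minus CD14lo cDC, and 2 to 5 higher and 26 to 34 lower in CD103+ cDC minus Ly6Chi moDC.

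The criterion for pairing, a correlation over 0.1 in every same-numbered pair, was not met: over 18 pairs the correlation of their deviations ran from -0.11 to 0.24 (median 0.06) and was over 0.1 in 8, against a median of -0.02 and 4 of 36 among other pairs. In 20 of 36 cases an array correlated best with its own number, where chance gives 12, a hint from the data and not from the design. With the replicate number as a block, 2 members were higher and 33 lower in CD103+ cDC minus Ly6Chi moDC, and 3 higher and 22 lower in conventional minus monocyte-derived. Second probe sets were tested for 40 members and none was called in opposite directions by the 2 probe sets.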
